A study of Homo sapiens with 12 samples.

Results

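The genes described here are MYC and its MAX network partners: MYC, MYCN, MYCL, MAX, MXD1, MXI1, MXD3, MXD4, MNT and MGA. They are taken by name, as the members of 1 transcription factor network. Of the 10 genes listed, 9 had a row among the 26058 genes of the expression table, and all 9 passed the filter on low values. The expression of MYCN was not analysed here.

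MYC, MYCN and MYCL are basic helix-loop-helix leucine zipper proteins that bind DNA and activate transcription as heterodimers with MAX. MXD1, MXI1, MXD3, MXD4, MNT and MGA also pair with MAX and compete for the same DNA element, the E-box, but recruit repressors in place of activators. MYC is an immediate early gene with a short-lived messenger RNA, and its expression follows growth factor signalling, while the MXD genes are best known from cells that leave the cell cycle.

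RNA was sequenced from HEK293 cells, a human embryonic kidney line, to ask whether the response to epidermal growth factor (EGF) and its repression by cordycepin need the energy-sensing kinase AMPK. Cordycepin is an adenosine analogue without the 3′ hydroxyl group. Wild type (WT) cells were compared with an AMPK knockout derivative (AMPK KO), in which CRISPR had been used against the genes of both catalytic subunits, PRKAA1 and PRKAA2. The sources used here do not say whether the derivative is 1 clone, so differences between the lines are differences between these lines.

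All 6 groups had been serum starved for 24 h. WT DMSO and AMPK KO DMSO cells received the solvent alone, for 50 min by the sample labels and 20 min by the protocol text. WT DMSO+EGF and AMPK KO DMSO+EGF cells received DMSO for 50 min with EGF for the last 30 min. WT cordycepin+EGF and AMPK KO cordycepin+EGF cells received 25 µM cordycepin for 50 min with EGF for the last 30 min. The EGF concentration was 15 in units that differed between sources (nM or µM), and this was not resolved. Each group had 2 libraries, numbered replicate 2 and replicate 3, which the study describes as biological. The labels do not say whether they came from separate cultures, so p-values measure the spread between these samples, which may be technical.

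Depth was uneven. WT DMSO replicate 3 held 3928661 recovered reads and the other 11 libraries held 12360969 to 25850084, and the correlation of log2 values between replicates was 0.918 in WT DMSO against 0.961 to 0.977 in the other groups. PRKAA1 lay at 11.2 to 22.0 scaled RPKM in the WT libraries and 7.20 to 8.68 in the AMPK KO libraries, without overlap, whereas PRKAA2 lay at 6.94 to 12.2 and 5.56 to 7.59, with overlap. RNA of both targeted genes was therefore still detected in AMPK KO cells. This does not tell whether the AMPK protein was lost, which these libraries did not measure. Of 8 genes listed as HEK293 markers, VIM (49.1 to 82.7), SOX4 (50.8 to 87.1), KRT8, KRT18 and NEFL were expressed in every library, while NEFM (0 to 0.341), PAX2 and LHX1 stayed below 1. Of 8 markers of other cell types only PTPRC (0 to 0.0607) and COL3A1 (0.115 to 0.303) were in the table, both near 0.

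The core promoter sequences of the network genes were examined first, because MAX heterodimers bind the palindromic E-box CACGTG. RefSeq promoter windows (GRCh38.p14, 250 bases before to 50 bases after a gene start) were found for 9 of the 10 genes, all but MYC, in 14 windows. The E-box was present in 2 of the 14 windows, those of the repressor genes MXD4 and MNT, against 7.26% of all 35116 windows. The first 200 bases of both windows are shown 5′ to 3′ on the minus strand, with the E-box in capitals. The MXD4 stretch is chr4:2262160-2262359 and the MNT stretch is chr17:2401111-2401310.
MXD4: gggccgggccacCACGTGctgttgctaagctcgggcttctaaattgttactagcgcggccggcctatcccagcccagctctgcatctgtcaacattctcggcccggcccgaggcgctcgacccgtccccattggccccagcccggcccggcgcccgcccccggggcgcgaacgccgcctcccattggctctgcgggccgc
MNT: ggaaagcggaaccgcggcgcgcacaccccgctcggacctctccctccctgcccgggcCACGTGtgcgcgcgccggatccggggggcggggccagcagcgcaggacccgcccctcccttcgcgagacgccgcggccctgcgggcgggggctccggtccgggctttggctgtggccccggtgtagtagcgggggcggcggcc
The E-box began 238 bases before the annotated start in MXD4 and 193 bases before it in MNT. The GC box GGGCGG, searched on both strands, was present in 11 of the 14 windows against 45.0% of all windows. TTTGGCGC, an E2F-type motif, was found in windows of MYCN and MGA, against 0.652% of all windows. TTTCCCGC (1.63% of all windows), TGACGTCA (1.85%) and CCGGAAGT (4.14%) were found in none of the 14. These matches describe letters in the windows, not bound sites.

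Levels are given as RPKM (reads scaled to gene length and to library size) divided by the upper quartile of each library, here called scaled RPKM, which is per length and so can be compared between genes. Over the 12 libraries the mean level was 17.7 for MYC and 12.8 for MXD4, then 8.94 for MGA, 8.80 for MAX, 7.94 for MXI1, 5.75 for MXD1, 5.38 for MNT, 2.47 for MXD3 and 1.19 for MYCL. MYC also had the widest range, with an 8.20-fold difference between its highest and lowest library. MYCL (2.94-fold) and MXD3 (2.53-fold) followed, and they had the fewest reads, 13 to 243 and 46 to 374 per library. The other 6 genes ranged by 1.36-fold (MAX) to 1.78-fold (MXI1).

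MYC (ENSG00000136997) lies on GRCh38 chromosome 8, 127735434 to 127742951, plus strand. In WT DMSO cells it was at 28.3 in replicate 2 and 20.5 in replicate 3. In WT DMSO+EGF cells it was at 44.4 and 44.6. In WT cordycepin+EGF cells it was at 11.6 and 11.1. These 3 WT groups did not overlap, and the EGF-treated cells were the highest. In AMPK KO DMSO cells MYC was at 6.86 and 6.83, in AMPK KO DMSO+EGF cells at 11.1 and 9.77, and in AMPK KO cordycepin+EGF cells at 5.44 and 11.7. The AMPK KO cordycepin+EGF libraries thus differed from each other by a larger ratio than any other pair and spanned both other AMPK KO groups. Each value rested on 354 to 5218 reads, and the 379 reads of WT DMSO replicate 3 had a 95% Poisson interval of 341.8 to 419.1, which covers counting error only, since reads carried no molecular identifiers.

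**Figure D1:**
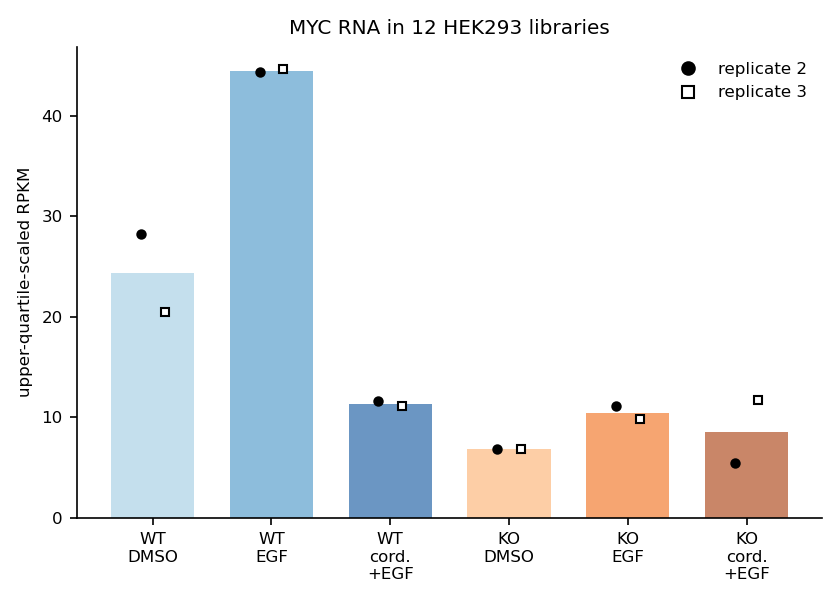
Scaled RPKM of MYC (vertical axis) in the 6 groups (horizontal axis), where bars are group means and points are single libraries (filled circles replicate 2, open squares replicate 3). WT DMSO+EGF cells are highest at 44.4 and 44.6. The lowest WT group, cordycepin+EGF, lies at 11.6 and 11.1 and meets the upper AMPK KO libraries. AMPK KO DMSO+EGF replicate 2 is also at 11.1, and AMPK KO cordycepin+EGF replicate 3 is at 11.7.

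Ordered by mean, the MYC level ran from WT DMSO+EGF (44.5 ± 0.160, SD, n = 2) to WT DMSO (24.4 ± 5.51), WT cordycepin+EGF (11.4 ± 0.349), AMPK KO DMSO+EGF (10.4 ± 0.939), AMPK KO cordycepin+EGF (8.56 ± 4.41) and AMPK KO DMSO (6.84 ± 0.0271). The first 3 groups were separated from each other. The lowest WT cordycepin+EGF library and the highest AMPK KO DMSO+EGF library were both at 11.1, and AMPK KO cordycepin+EGF overlapped its neighbours on both sides. In bulk RNA, fewer cells that express a gene and less RNA per cell cannot be told apart.

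The results for the network that passed adjustment were all differences of MYC between the lines. With DMSO alone, MYC was 3.35-fold lower in AMPK KO than in WT cells, at -1.74 on the log2 scale (SE 0.284, adjusted p 0.0434). Fold changes are on the log2(scaled RPKM + 0.5) scale, and adjusted p is from limma with Benjamini-Hochberg adjustment over 22067 genes. With EGF the difference was -2.04 (SE 0.284, adjusted p 0.0199), or 4.12-fold. Averaged over the 3 treatments it was -1.42 (SE 0.164, adjusted p 0.00346), or 2.68-fold. In cordycepin+EGF it was -0.48 (SE 0.284, adjusted p 0.471), and the libraries of the lines overlapped. Leaving out replicate 2 of AMPK KO cordycepin+EGF gave 0.04, and leaving out replicate 3 gave -0.996.

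The call in DMSO alone was the least secure of these. It was lost in 4 of 11 alternatives, which were the fit of only these groups (adjusted p 0.416), no trend (adjusted p 0.0545), a replicate block (adjusted p 0.0528) and a block within each cell line (adjusted p 0.0605), and in 9 of 12 fits that each left out a library, while voom on the recovered reads kept it (adjusted p 0.00147). The DMSO+EGF call was lost when any of its own 4 libraries was left out, with adjusted p of 0.123 to 0.215 and log2 fold changes of -2.13 to -1.96. The averaged difference passed in all 10 alternatives that could be fitted and in all 12 fits without a library.

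MYC was the single member called in each of the 3 comparisons between the lines that held a call. In DMSO, 1 of 9 members passed adjustment, against 0.440% of the 22067 genes, and 4 of 9 had an unadjusted p under 0.05, against 21.3%: MYC, MXD1 and MXI1 were lower and MXD4 higher. In DMSO+EGF, 1 of 9 passed against 1.74%, and 2 of 9 (MYC and MYCL, both lower) had an unadjusted p under 0.05 against 22.5%. Averaged over treatments, 1 of 9 passed against 4.34%, and 2 of 9 (MYC and MXD1, both lower) had an unadjusted p under 0.05 against 20.4%. In cordycepin+EGF no member passed with limma (0.118% of all genes did), 0 of 9 had an unadjusted p under 0.05 (13.7% of all genes did), and voom called 0 members. The median log2 fold change of the members was -0.13 in DMSO, -0.05 in DMSO+EGF and -0.07 averaged, beside 0.01, 0.00 and 0.00 over all genes.

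EGF was added for 30 min, and the comparison with DMSO alone asks which genes responded in each line. In WT cells MYC was at 20.5 and 28.3 without EGF and at 44.4 and 44.6 with it, without overlap, but the log2 fold change of 0.87 (SE 0.284, unadjusted p 0.0133) did not pass adjustment (adjusted p 0.482). MYC in AMPK KO cells was at 6.83 and 6.86 without EGF and at 9.77 and 11.1 with it, again without overlap, which gave 0.57 on the log2 scale (SE 0.284, adjusted p 1.00). The difference between these effects was -0.30 (SE 0.402, 95% interval -1.21 to 0.61, adjusted p 0.856), which does not show that the lines responded alike. It was -0.53 without WT DMSO replicate 2 and -0.07 without WT DMSO replicate 3.

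Few genes were called for EGF at all. In WT cells limma called 0 of 9 members and 0.0227% of all genes, with 2 of 9 members (MYC and MYCL, both higher) at an unadjusted p under 0.05 against 9.72% of all genes, and voom called 0 members. The same fit in AMPK KO cells called 0 of 9 members and 0.0136% of all genes, with 1 of 9 members (MXD1, higher) at an unadjusted p under 0.05 against 2.42%, and voom called 0 members. For the difference of the EGF effect between the lines limma called 0 of 9 members and 0.0% of all genes, with 1 of 9 members (MXD1) at an unadjusted p under 0.05 against 8.69%, and voom called 0 of its 21805 genes, with 2030 at an unadjusted p under 0.05.

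Cordycepin with EGF was compared with DMSO+EGF. In WT cells MYC was lower with cordycepin in both libraries, at 11.1 and 11.6 against 44.4 and 44.6. The log2 fold change was -1.93 (SE 0.284, 95% interval -2.57 to -1.28), or 3.80-fold lower, with an unadjusted p of 8.35e-05 and an adjusted p of 0.177. It passed with voom (adjusted p 7.65e-04) and without either AMPK KO cordycepin+EGF library, whose values do not enter this difference. It passed in no other alternative. The AMPK KO difference was -0.36 (SE 0.284, adjusted p 0.486), and it depended on 1 library. It was -0.88 (adjusted p 0.0903) without AMPK KO cordycepin+EGF replicate 3 and 0.16 (adjusted p 0.736) without replicate 2.

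The cordycepin effect on MYC differed between the lines by 1.57 (SE 0.402, 95% interval 0.66 to 2.48), with an unadjusted p of 0.00368 and an adjusted p of 0.123. It passed with voom (adjusted p 0.00929) and without either WT DMSO library, whose values do not enter this difference. It passed in no other fit, and so not when a library of its own groups was left out. Without AMPK KO cordycepin+EGF replicate 2 or 3 the difference lay at 2.08 or 1.05. The comparisons of EGF and of cordycepin share the DMSO+EGF libraries of each line, so their signs are not independent.

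Against DMSO alone, MYC in WT cordycepin+EGF cells was at 11.1 and 11.6 against 20.5 and 28.3, which is -1.05 on the log2 scale (SE 0.284, adjusted p 0.136) and passed with voom (adjusted p 0.0363). The same difference in AMPK KO cells was 0.21 (SE 0.284, adjusted p 0.682), and the libraries overlapped. Leaving out replicate 2 or 3 of AMPK KO cordycepin+EGF gave 0.73 or -0.31. MYC in WT cells with cordycepin and EGF therefore lay below the level of unstimulated WT cells in every library.

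For cordycepin with EGF in WT cells limma called 0 of 9 members and 0.00453% of all genes, with 2 of 9 members (MYC and MGA, both lower) at an unadjusted p under 0.05 against 16.0%, and voom called MYC. With cordycepin in AMPK KO cells it called 0 of 9 members and 0.471% of all genes, with 1 of 9 members (MAX, lower) at an unadjusted p under 0.05 against 21.8%, and voom called 0 members. For the difference between the lines limma called 0 of 9 members and 0.0% of all genes, with 2 of 9 members (MYC and MXD4) at an unadjusted p under 0.05 against 21.4%. Voom called 2274 genes for that difference, MYC among them.

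Against DMSO alone, cordycepin+EGF gave 0 of 9 members called by limma in WT cells (0.0680% of all genes), with 3 of 9 at an unadjusted p under 0.05 against 19.4%: MYC and MGA were lower and MXD4 higher. Voom called MYC there. Against DMSO alone in AMPK KO cells it called 0 of 9 members (0.358% of all genes), with 2 of 9 at an unadjusted p under 0.05 against 22.2%, MXI1 higher and MXD4 lower, and voom called 0 members.

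**Figure D2:**
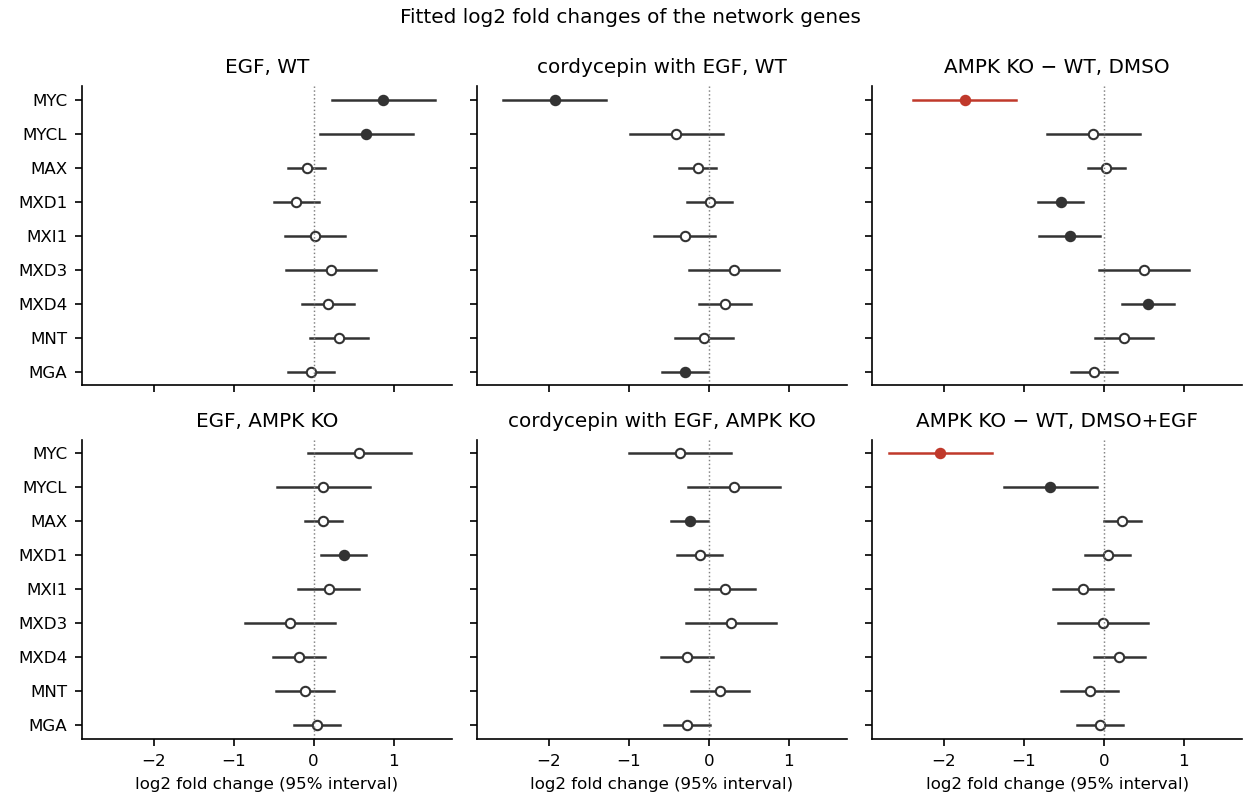
Fitted log2 fold changes (points) with 95% intervals (lines) of the 9 genes in 6 comparisons, on 1 shared horizontal axis. Filled points have an unadjusted p under 0.05 and red marks an adjusted p under 0.05, which MYC alone reaches, at -1.74 and -2.04 between the lines.

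MYCL (ENSG00000116990, chromosome 1, 39895428 to 39902256, minus strand), the MYC paralogue first found amplified in lung cancer, was low in every library. It was at 1.87 and 1.72 in WT DMSO+EGF cells and at 0.636 to 1.43 in the other 10 libraries, so WT DMSO+EGF was the highest group without overlap. Its difference with EGF in WT cells was 0.66 on the log2 scale (SE 0.257, adjusted p 0.497), and 1.01 and 0.30 without WT DMSO replicate 2 and 3. Between the lines in DMSO+EGF it was -0.67 (SE 0.257, adjusted p 0.167), and voom called that difference (log2 fold change -0.95, adjusted p 0.0396). WT DMSO replicate 3 held 13 MYCL reads, so its level of 0.636 is imprecise.

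MAX (ENSG00000125952, chromosome 14, 65006174 to 65102695, minus strand), the shared partner of the others, varied least. It was at 9.04 and 8.99 in WT DMSO, 8.41 and 8.54 in WT DMSO+EGF and 7.78 and 7.55 in WT cordycepin+EGF cells. The AMPK KO libraries were at 9.19 and 9.20 in DMSO, 9.78 and 10.3 in DMSO+EGF and 7.99 and 8.91 in cordycepin+EGF. In both lines the cordycepin+EGF libraries were the lowest, and no difference passed adjustment. The log2 fold change with cordycepin was -0.24 (SE 0.102, unadjusted p 0.0464, adjusted p 0.222) in AMPK KO and -0.14 in WT cells. Exons of FNTB on the opposite strand cover 13.1% of the MAX exon bases, and whether reads were counted by strand is not given in the sources used here.

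**Figure D3:**
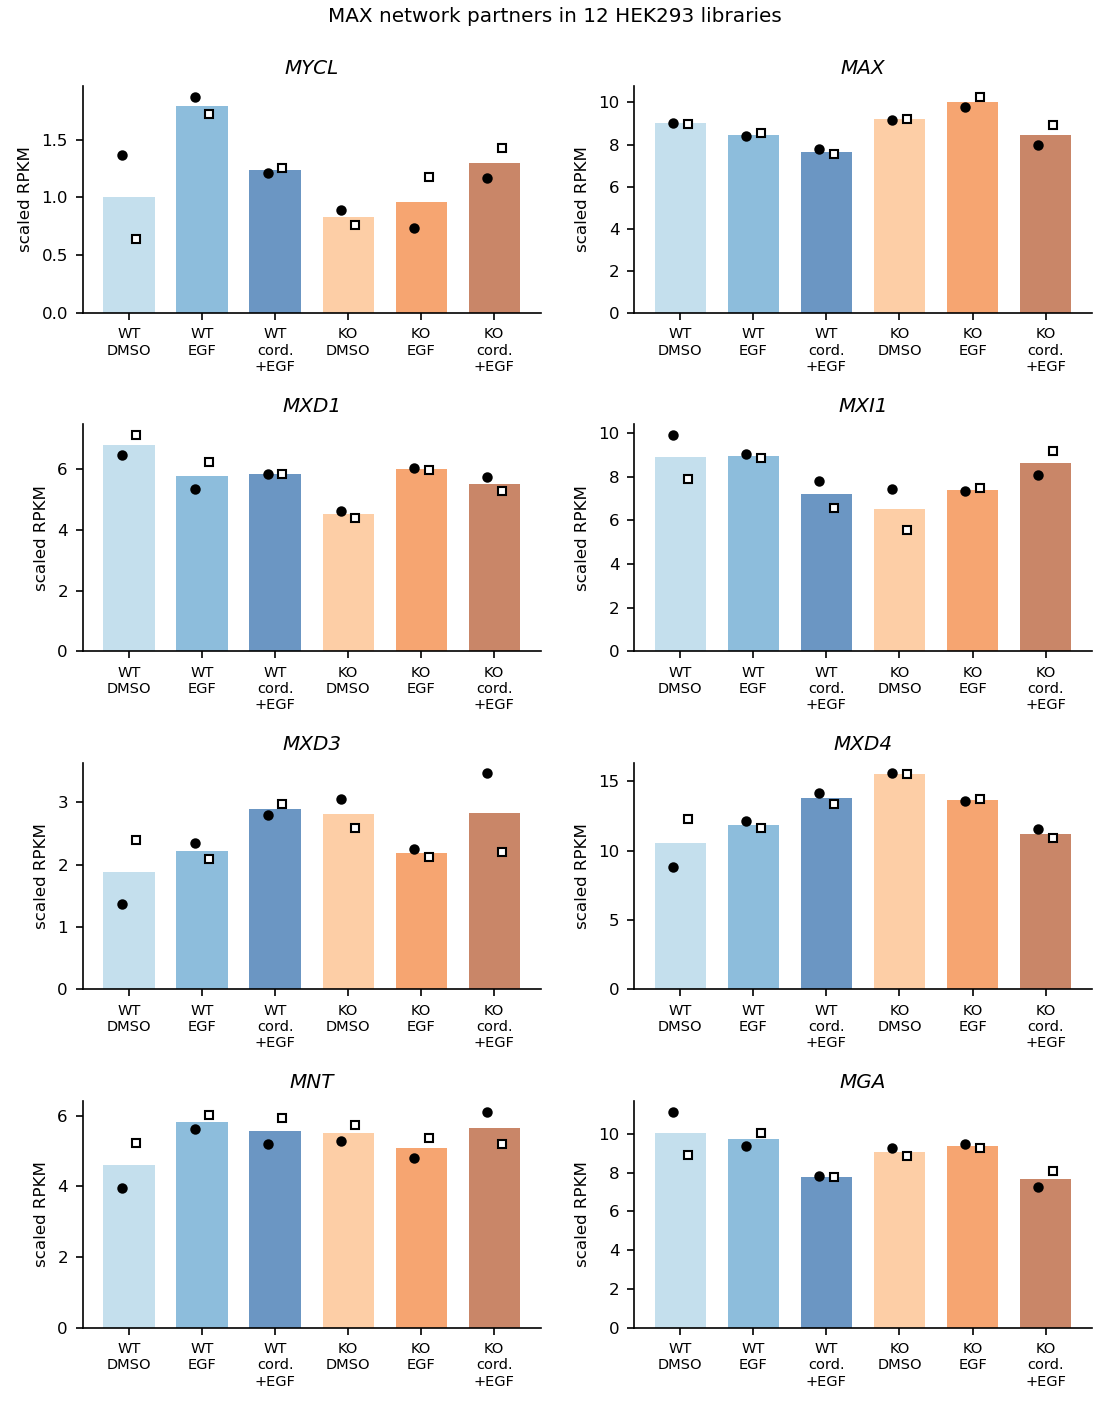
Scaled RPKM (vertical axes, each from 0 with its own range) of the 8 MAX network partners of MYC in the 6 groups, where bars are group means, filled circles replicate 2 and open squares replicate 3. MXD4 is highest in AMPK KO DMSO cells at 15.5 and 15.6, MXD1 is lowest there at 4.40 and 4.63, and MAX stays between 7.55 and 10.3.

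The MXD genes encode repressors that bring the SIN3 corepressor and histone deacetylases to MAX-bound DNA. MXD1 (ENSG00000059728, chromosome 2, 69897688 to 69942945, plus strand) was at 6.47 and 7.14 in WT DMSO cells and at 4.63 and 4.40 in AMPK KO DMSO cells. These were its highest and its lowest groups, and neither overlapped any other group. The log2 fold change between the lines was -0.54 (SE 0.124, adjusted p 0.0777), and voom called it (adjusted p 0.0363). With EGF it was at 5.34 and 6.26 in WT and 6.04 and 5.98 in AMPK KO cells. The EGF effect was -0.22 in WT (-0.11 without WT DMSO+EGF replicate 2) and 0.38 (SE 0.124, unadjusted p 0.0144, adjusted p 1.00) in AMPK KO cells. In cordycepin+EGF it was at 5.84 and 5.86 in WT cells and 5.76 and 5.28 in AMPK KO cells.

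MXD4 (ENSG00000123933, chromosome 4, 2247432 to 2262109, minus strand), the most abundant repressor gene of the network here, was at 8.84 and 12.3 in WT DMSO, 12.1 and 11.6 in WT DMSO+EGF and 14.2 and 13.4 in WT cordycepin+EGF cells. The AMPK KO means stood in the opposite order, with 15.6 and 15.5 in DMSO, 13.6 and 13.7 in DMSO+EGF and 11.6 and 10.9 in cordycepin+EGF. AMPK KO DMSO was its highest group, without overlap, and the 3 AMPK KO groups did not overlap each other. The difference between the lines in DMSO was 0.55 (SE 0.143, adjusted p 0.100), and it was 0.78 (adjusted p 0.0118) without WT DMSO replicate 3 and 0.32 (adjusted p 0.186) without WT DMSO replicate 2. Voom called it (adjusted p 0.0267).

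With cordycepin and EGF against DMSO alone, MXD4 differed by 0.38 (SE 0.143, adjusted p 0.203) in WT cells and by -0.45 (SE 0.143, adjusted p 0.136) with AMPK KO. In WT the difference passed without WT DMSO replicate 3 (0.61, adjusted p 0.0249) and was 0.15 without replicate 2. The AMPK KO value, whose own libraries stayed in the fit, passed without either WT DMSO library (adjusted p 0.0344 and 0.0348). The cordycepin effect on MXD4 differed between the lines by -0.48 (SE 0.202, 95% interval -0.93 to -0.02, adjusted p 0.218).

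MXI1 (ENSG00000119950, chromosome 10, 110207605 to 110287365, plus strand), a MAX-binding repressor also known as MXD2, was at 9.92 and 7.88 in WT DMSO, 9.05 and 8.89 in WT DMSO+EGF and 7.81 and 6.59 in WT cordycepin+EGF cells. The AMPK KO libraries were at 7.44 and 5.58, 7.34 and 7.49, and 8.09 and 9.19 in the same order of treatments. The lowest values stood in AMPK KO DMSO and WT cordycepin+EGF cells, and WT DMSO, WT DMSO+EGF and AMPK KO cordycepin+EGF overlapped. The difference between the lines in DMSO was -0.43 (SE 0.167, adjusted p 0.193). It ranged from -0.62 to -0.24 when 1 library was left out, where -0.24 left out AMPK KO DMSO replicate 3. Leaving out WT DMSO replicate 2 gave -0.27. With cordycepin and EGF against DMSO alone it was 0.39 (SE 0.167, adjusted p 0.211) in AMPK KO cells, and 0.20 without AMPK KO DMSO replicate 3.

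MXD3 (ENSG00000213347, chromosome 5, 177301461 to 177312757, minus strand), the MXD gene linked to S phase, was low, at 1.37 to 3.46 over the 12 libraries. The WT DMSO libraries were at 1.37 and 2.40 and the AMPK KO cordycepin+EGF libraries at 3.46 and 2.20, so the spread within these groups was as wide as most differences between groups. The difference between the lines in DMSO was 0.51 (SE 0.249, adjusted p 0.274), and 0.19 and 0.82 without WT DMSO replicate 2 and 3. Its level is uncertain, because exons of RAB24 on the same strand cover 19.5% and exons of PRELID1 on the opposite strand 24.2% of its exon bases.

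MNT (ENSG00000070444, chromosome 17, 2384073 to 2401104, minus strand), a broadly expressed repressor that also recruits SIN3, was at 3.96 to 6.12 and each group overlapped the next in the order of means. WT DMSO was the lowest group, at 3.96 and 5.24, and WT DMSO+EGF the highest, at 5.62 and 6.02. Its EGF difference in WT cells was 0.32 (log2 scale, SE 0.160, adjusted p 0.531), and 0.14 and 0.50 without WT DMSO replicate 2 and 3. No comparison gave an unadjusted p under 0.05 for MNT.

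MGA (ENSG00000174197, chromosome 15, 41621134 to 41773081, plus strand) encodes a large protein with both a T-box and a MAX-binding domain, found in a variant Polycomb complex. It was at 11.2 and 8.89 in WT DMSO, 9.39 and 10.1 in WT DMSO+EGF and 7.84 and 7.75 in WT cordycepin+EGF cells. Its AMPK KO levels were 9.27 and 8.88, 9.45 and 9.28, and 7.27 and 8.07. In both lines the cordycepin+EGF libraries were below all others of the line. With cordycepin the log2 fold change was -0.30 (SE 0.127, unadjusted p 0.0416, adjusted p 0.298) in WT and -0.27 (SE 0.127, unadjusted p 0.0584, adjusted p 0.246) in AMPK KO cells.

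The share of each gene in the summed scaled RPKM of the 9 genes describes how the RNA of the network was made up. MYC made up 31.4% ± 5.29 (SD, n = 2) in WT DMSO, 44.9% ± 0.233 in WT DMSO+EGF and 17.9% ± 0.184 in WT cordycepin+EGF cells. In AMPK KO cells it made up 11.3% ± 0.304, 16.0% ± 1.46 and 14.1% ± 6.38 in the same order. The MYC share was thus above that of any AMPK KO library in the WT DMSO and WT DMSO+EGF libraries, while the 2 WT cordycepin+EGF libraries at 17.8% and 18.1% fell below AMPK KO cordycepin+EGF replicate 3 at 18.6%. The sum of the 9 genes was 99.2 ± 0.870 in WT DMSO+EGF, 77.2 ± 4.54 in WT DMSO and 59.9 to 65.1 as means of the other 4 groups.

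The 6 repressor genes together made up 44.8% ± 0.332 in WT DMSO+EGF, 55.6% ± 5.25 in WT DMSO and 68.0% ± 0.0990 in WT cordycepin+EGF cells. In AMPK KO cells they made up 72.3% ± 0.686 in DMSO, 67.1% ± 0.467 in DMSO+EGF and 69.6% ± 6.63 in cordycepin+EGF. Shares of a sum move against each other, so a lower MYC share raises the repressor share without any change of the repressor genes. The ratio of MYC to MAX levels was 2.70 in WT DMSO, 5.25 in WT DMSO+EGF and 1.48 in WT cordycepin+EGF cells, against 0.744, 1.04 and 0.996 in AMPK KO cells. The ratio of MXD4 to MYC levels was 0.457, 0.267 and 1.21 in WT and 2.27, 1.31 and 1.53 in AMPK KO cells. RNA was measured here, not protein, and these ratios say nothing of the dimers formed.

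**Figure D4:**
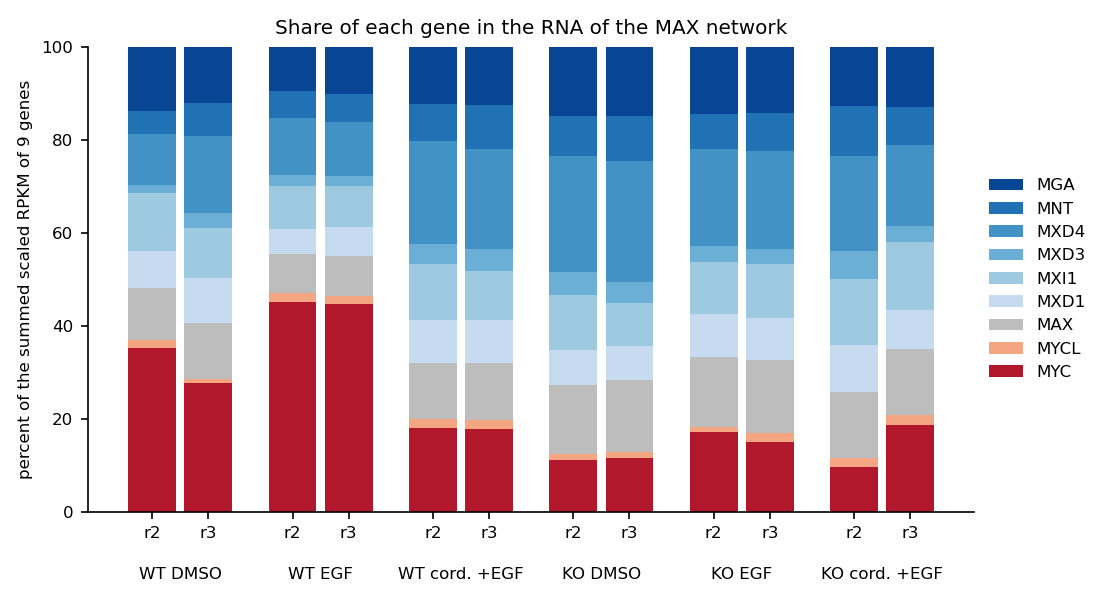
Percent of the summed scaled RPKM of the 9 genes (vertical axis) taken by each gene in the 12 libraries, with r2 and r3 for replicates 2 and 3. MYC takes 44.7% and 45.1% in WT DMSO+EGF cells and 9.57% to 18.6% in the AMPK KO libraries.

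The genes whose pattern was most like that of MYC were found among 7151 protein-coding genes with a mean of at least 5 RPKM, by Pearson's r of log2 values over the 12 libraries, which share their groups, lines and depth. They were CCND2 (cyclin D2) with r of 0.938, PRKAA2 (0.935), CUX1 (a homeobox transcription factor, 0.930), LARP1 (an RNA-binding protein of ribosomal protein messenger RNAs, 0.928) and CNOT11 (a subunit of the CCR4-NOT deadenylase, 0.926). The median r was 0.00685, and 27 genes were above 0.9. PRKAA2 is itself a target of the knockout. CCND2 had group means of 49.5, 53.5 and 35.3 in WT cells (DMSO, DMSO+EGF and cordycepin+EGF) and 27.4, 30.7 and 31.2 in AMPK KO cells. Within the network, r to MYC was 0.632 for MXI1, 0.603 for MGA, 0.567 for MYCL, 0.473 for MXD1, -0.0823 for MAX, -0.194 for MNT, -0.540 for MXD4 and -0.622 for MXD3. These values are descriptions.

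The other genes of the pathway were taken from 5 lists with 61 tested genes. USP37, a deubiquitinase known to stabilise MYC protein, had the largest averaged difference between the lines among the 61. It was at 6.72 and 6.73 in WT DMSO, 5.54 and 5.86 in WT DMSO+EGF and 5.90 and 6.15 in WT cordycepin+EGF cells. In AMPK KO cells it was at 12.3 and 10.1, 12.4 and 12.4, and 7.66 and 8.70, so every AMPK KO library was above every WT library. The log2 fold change between the lines was 1.06 (SE 0.124, adjusted p 0.0143) in DMSO+EGF and 0.72 (SE 0.0716, adjusted p 0.00195) averaged over treatments. Of the 11 genes of the list on MYC turnover, 1 was higher in each of these comparisons and none lower, beside 1.74% of all genes called in DMSO+EGF and 4.34% averaged. The averaged USP37 call was kept in all 10 alternatives and all 12 fits without a library, and the DMSO+EGF call was lost in 4 of those 12, without any of its own libraries.

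Of the 29 tested genes known as MYC targets, 1 was lower between the lines in DMSO+EGF, and 2 were lower and 1 higher averaged over treatments, beside 1.74% and 4.34% of all genes called. SLC19A1, the reduced folate carrier, was at 13.0 and 13.1 in WT DMSO+EGF and 7.54 and 7.16 in AMPK KO DMSO+EGF cells, which gave -0.79 on the log2 scale (SE 0.118, adjusted p 0.0239), and averaged -0.39 (SE 0.0683, adjusted p 0.0169). These calls were kept in every alternative that could be fitted, and were lost in 6 and 7 of 12 fits without a library. CCND2 was lower by -0.61 (SE 0.135, adjusted p 0.0410) on the averaged log2 scale. That call was lost with a replicate block (adjusted p 0.0514), a block within each cell line (0.0702) and no trend (0.0533), and was kept in 2 of 12 fits without a library, those without AMPK KO cordycepin+EGF replicate 3 or WT DMSO replicate 3. RRP9, a U3 small nucleolar RNA binding protein, was higher by 0.36 (SE 0.0742, adjusted p 0.0325). It was lost with no trend (adjusted p 0.0548) and kept in 2 of 12 fits without a library, those without AMPK KO DMSO replicate 2 or WT DMSO replicate 3. The median averaged log2 fold change of the list was -0.05, beside 0.00 over all genes.

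Of the 10 MYC cofactors, RUVBL1, an ATPase of chromatin remodelling complexes, was higher averaged over treatments (0.43, SE 0.0984, adjusted p 0.0461), but RUVBL1 was lost in 5 of 10 alternatives. They were RPKM as deposited (adjusted p 0.0535), median-ratio scaling (0.0507), a replicate block (0.0558), a block within each cell line (0.0731) and no trend (0.0626), and the call was also lost in 9 of 12 fits without a library. No gene of the 6 corepressors or of the 5 genes of the MLX arm passed in any comparison in the limma fit of all 12 libraries. In DMSO+EGF the limma fit of only the groups compared called MLXIPL (-0.86, adjusted p 0.0363) and SIN3A (0.56, adjusted p 0.0343) between the lines. Fits without a WT DMSO library, which that comparison does not use, called MLXIPL, SIN3A and ARRDC4. Fits without a library of the groups compared called none of these genes. In these 2 lists, 3 of 6 and 2 of 5 had an unadjusted p under 0.05 in the averaged comparison of the lines, beside 20.4% of all genes, with HDAC1 (0.22) and SIN3A (0.21) higher and SAP30 (-0.38), MLXIPL (-0.36) and MLXIP (-0.15) lower. Of the noncoding genes next to MYC family loci, PVT1 alone was tested, with no unadjusted p under 0.05 in any comparison.

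**Figure D5:**
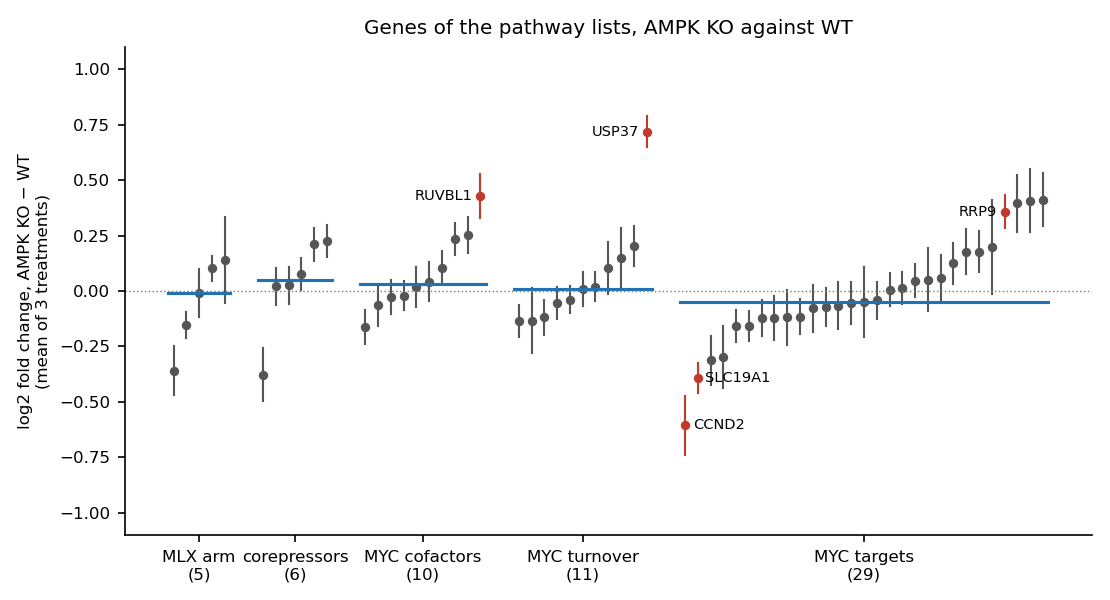
Averaged log2 fold change between AMPK KO and WT cells (vertical axis) of the 61 tested genes in 5 lists (number of genes in brackets), sorted within each list, with lines of 1 SE and a blue line at the list median. Red marks the 5 genes with an adjusted p under 0.05, from -0.61 for CCND2 to 0.72 for USP37.

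Outside the comparisons of the lines no gene of the 5 lists passed adjustment in the limma fit of all 12 libraries. At an unadjusted p under 0.05, the 29 MYC targets held 4 genes with EGF in WT cells (all higher), 0 with EGF in AMPK KO cells, 4 with cordycepin in WT cells (2 higher and 2 lower) and 8 with cordycepin in AMPK KO cells (2 higher and 6 lower). The shares of all genes in these comparisons were 9.72%, 2.42%, 16.0% and 21.8%. Voom called 0, 0, 3 and 5 genes of the 5 lists in these comparisons, beside 9, 4, 805 and 1089 of all 21805 genes. In WT cells EGF gave log2 fold changes of 0.64 for EIF4A1, a translation initiation helicase (adjusted p 0.438), and 0.44 for SLC19A1 (adjusted p 0.438). It gave 0.41 for CAD, an enzyme of pyrimidine synthesis (adjusted p 0.485). EIF4A1 was at 6.31 in WT DMSO replicate 2 and 4.53 in replicate 3. It passed only when replicate 2 was left out, which left the shallowest library as the WT DMSO group. With cordycepin in WT cells PPRC1, a coactivator of the PGC-1 family, was at 20.4 and 21.9 against 33.6 and 32.5 (-0.63, adjusted p 0.262), which voom called. With cordycepin in AMPK KO cells PRMT3, an arginine methyltransferase, was at 7.33 and 6.31 against 10.1 and 11.0 (-0.60, adjusted p 0.0644), which passed with voom and when either WT DMSO library was left out. Its cordycepin effect differed between the lines by -0.89 (SE 0.178, adjusted p 0.122). That difference passed with voom, in the fit of only the groups compared and without either WT DMSO library. The WT DMSO libraries enter neither of the PRMT3 differences. Neither passed when a library of its own groups was left out.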

How the data were processed

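RNA of 12 libraries, 2 for each of 6 groups given by the sample labels, was analysed in HEK293 WT and AMPK KO cells. The authors sequenced paired reads of 150 bases from stranded, ribosome-depleted libraries, mapped them to GRCh38.p13, counted them with Rsubread and deposited RPKM values, discarding replicate 1. The submitters' processing notes also name FastQC. The deposited RPKM values listed 26058 genes, with 2 more entries that carry no gene name and were dropped. GENCODE release 44 gave symbols for 26029 genes. Recovered reads were whole, within 0.05 of a read, for 96.2% of genes at the annotated length and 98.7% after a length search. For MYC, MYCL and MGA the fitted lengths (4584, 5062 and 19590 bases) differed from the annotated ones (6109, 4967 and 20074).

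Values were divided by each library's upper quartile (factors 0.969 to 1.03) and tested as log2(scaled RPKM + 0.5) for the 22067 genes averaging 0.5 RPKM or more. Fold changes therefore understate changes of low genes. Two-sided p-values came from limma 3.58.1 (R 4.3.3) with trend, from 1 fit of the 12 libraries with 6 residual degrees of freedom, and were adjusted by Benjamini-Hochberg separately for the 12 comparisons. The pipeline was tested on simulated data. The members, gene lists and rules were chosen with earlier results of these data known. Genes named were the members, the 5 genes most like MYC, each listed gene with an adjusted p under 0.05 and, per list and comparison, up to 3 with the smallest unadjusted p under 0.05. The settings varied were the pseudocount (0.1 or 1), the filter (none, or a mean of 1 RPKM), the scaling (none, or median-ratio), the samples fitted (those compared and no others), replicate blocks, no trend, voom on 21805 genes with recovered reads, and leaving out each library. Sequences are from RefSeq (GRCh38.p14).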

Additional observations from a re-analysis of the deposited data

Results flagged for a closer look

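The following genes had fold changes of opposite sign in the lines, with no overlap between the libraries compared in either line. The difference of the effects was tested with limma, and none passed adjustment over 22067 genes. Of the effects within a line, only that of EGF on MXD1 in AMPK KO cells had an unadjusted p under 0.05 (limma, 0.0144). The others lay at 0.0892 to 0.431. With 2 libraries a group, opposite signs without overlap do not show opposite responses. The share of all genes that met the same rule was not counted, so the number of members flagged cannot be read as particular to the network. With EGF, MXD1 was lower in WT cells (6.47 and 7.14 without, 5.34 and 6.26 with) and higher in AMPK KO cells (4.63 and 4.40 without, 6.04 and 5.98 with), a difference of 0.5918 on the log2 scale (SE 0.176, adjusted p 0.569). With EGF, MAX was slightly lower in WT (-0.08 on the log2 scale) and higher in AMPK KO cells (0.12), a difference of 0.2023 (adjusted p 0.694). With cordycepin, MXI1 was lower in WT cells (9.05 and 8.89 without, 7.81 and 6.59 with) and higher in AMPK KO cells (7.34 and 7.49 without, 8.09 and 9.19 with), a difference of 0.5083 (SE 0.236, adjusted p 0.253). With cordycepin, MXD4 was higher in WT and lower in AMPK KO cells, a difference of -0.4779 (SE 0.202, adjusted p 0.218).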

How the results depend on the processing

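Over 108 values (9 genes in 12 comparisons) and 2475 values from alternatives, 2442 kept their side of the adjusted threshold. Of the rest, 17 were weaker, 16 were newly past it and 0 were reversed. Most values were not called in the main fit, so keeping a side mostly meant staying uncalled. All 17 weaker values were the MYC differences between the lines in DMSO and in DMSO+EGF. The tally therefore does not show that the calls were stable. A sign counted as a direction only where the unadjusted p of either fit was under 0.05. In 43 values the sign changed otherwise, with unadjusted p of at least 0.140.

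With voom, the number of members called was 1 (MYC) for cordycepin in WT cells and 1 for cordycepin+EGF against DMSO in WT cells. Between the lines it was 3 in DMSO, 2 in DMSO+EGF and 1 (MYC) averaged over treatments. For the difference of cordycepin effects it was 1. Over all genes voom called 9 for EGF in WT cells against 5 with limma on RPKM, and 4 against 3 in AMPK KO cells. It called 805 against 1 for cordycepin in WT and 1089 against 104 in AMPK KO cells, and 710 against 15 and 1508 against 79 for cordycepin+EGF against DMSO. Between the lines it called 1861 against 97 in DMSO, 2658 against 383 in DMSO+EGF, 459 against 26 in cordycepin+EGF and 2325 against 957 averaged. For the difference of cordycepin effects it called 2274 against 0, and the cause was not tested. Between the lines in DMSO, no member passed (0 called) in the fit of only the groups compared, without trend and with either replicate block. Leaving out 1 library gave 0 to 1 members called for cordycepin in WT cells, 0 to 2 for cordycepin+EGF against DMSO in WT cells, 0 to 1 for the same in AMPK KO cells, 0 to 2 between the lines in DMSO, 0 to 1 in DMSO+EGF, 1 to 2 averaged over treatments and 0 to 1 for the difference of cordycepin effects. The lone sample left in a group was assumed to vary like the other groups. The share of all genes called in these fits is not given here, so added calls cannot be read as particular to the members. The 2 called averaged over treatments were MYC and MXD4 (0.23, adjusted p 0.0323), without WT DMSO replicate 3, and MGA also passed without that library for cordycepin+EGF against DMSO in WT cells (-0.49, adjusted p 0.0462).

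Replicate numbers were not taken to pair the samples. The correlation of replicate differences between groups was -0.122 to 0.322 over 15 pairs of groups, over 0.1 in 6. It was 0.136 to 0.314 in the 3 pairs of WT groups and -0.122 to 0.0307 in the 3 pairs of AMPK KO groups. The highest value, 0.322, was between the lines, for AMPK KO DMSO and WT cordycepin+EGF. Replicate 2 was the deeper library in each WT group, and whether depth or pairing gave these values was not tested. With a replicate block over all samples MYC between the lines in DMSO had an adjusted p of 0.0528, and with a block within each cell line 0.0605.

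Of the 61 listed genes, voom called 3 for cordycepin in WT cells, 5 in AMPK KO cells and 4 for cordycepin+EGF against DMSO in AMPK KO cells. Between the lines it called 6 in DMSO, 10 in DMSO+EGF, 3 in cordycepin+EGF and 12 averaged. For the difference of cordycepin effects it called 15. Over all 21805 genes voom called 805, 1089, 1508, 1861, 2658, 459, 2325 and 2274 in the same order. No set test was run, so the list counts are descriptions. The fit of only the groups compared called 6 of the listed genes in DMSO+EGF and 4 for the difference of cordycepin effects. A block within each line called 1 for cordycepin+EGF against DMSO in AMPK KO cells and 3 averaged. No trend called 2 averaged, and no filter and RPKM as deposited each called 1 in DMSO. Without 1 library the counts were 0 to 3 for EGF in WT cells, 0 to 5 for cordycepin in AMPK KO cells, 0 to 4 for cordycepin+EGF against DMSO in either line, 0 to 14 between the lines in DMSO, 0 to 7 in DMSO+EGF, 1 to 11 averaged and 0 to 10 for the difference of cordycepin effects. WT DMSO replicate 3, the shallowest library, gave the counts of 14 and 11. For the settings other than voom the share of all genes called is not given here. Those counts therefore cannot be read as particular to these lists. MYCL and MXD3 rested on as few as 13 and 46 reads.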

Other observations

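The MLX arm runs beside the MAX network, with MLX as partner of the glucose sensors MLXIP (MondoA) and MLXIPL (ChREBP), whose known targets include ARRDC4 and TXNIP. MLXIPL was at 3.26 and 2.37 in WT DMSO, 3.91 and 3.60 in WT DMSO+EGF and 2.82 and 2.10 in WT cordycepin+EGF cells. In AMPK KO cells it was at 1.73 and 1.80, 1.80 and 1.89, and 2.93 and 3.40. Cordycepin with EGF thus stood with lower values in WT cells (-0.54 on the log2 scale, adjusted p 0.276) and higher values in AMPK KO cells (0.64, adjusted p 0.114). Voom called the AMPK KO value (adjusted p 0.0397). The difference of these effects was 1.18 (SE 0.269, adjusted p 0.122). MLXIPL passed there with voom (adjusted p 0.0114) and in the fit of only the groups compared (0.0442). It also passed without either WT DMSO library, whose values do not enter this difference. It did not pass without a library of its own groups.

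ARRDC4 was at 12.2 and 14.3 in AMPK KO cordycepin+EGF cells and at 31.0 to 33.9 in the other AMPK KO libraries. The log2 fold change with cordycepin was -1.32 (SE 0.334, adjusted p 0.0853), and it passed with voom (adjusted p 0.0204). The WT libraries of ARRDC4 ranged from 14.2 to 32.4, and the WT DMSO replicates were at 15.0 and 32.4. The cordycepin effect on ARRDC4 differed between the lines by -1.89 (SE 0.472, adjusted p 0.122). This difference passed with voom (adjusted p 0.00946) and in the fit of only the groups compared (0.0399). Both results also passed without either WT DMSO library, whose values enter neither of them. Neither passed when a library of its own groups was left out.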
